A study of Homo sapiens with 27 samples.

Results

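3-Methylcholanthrene (3MC) was compared with naphthalene (NP) in HepG2 cells, a human cell line from a hepatocellular carcinoma, after 48 h of exposure. The comparison used 6 of the 27 arrays of a study of 9 polycyclic aromatic hydrocarbons: the 3 arrays hybridised with RNA from cells given 3MC and the 3 with RNA from cells given NP. On every array the RNA of exposed cells was labelled with Cy5 and that of cells given the solvent DMSO with Cy3, and dyes were never exchanged. The arrays were chosen by their labels and not by any measured value. The quantity compared was the log2 ratio of Cy5 over Cy3 of each gene with 3MC minus the same ratio with NP. Dye and probe effects common to both sets cancel in it. Ratios of a single compound against DMSO keep these effects, so that their sign, size and calls may in part be a dye bias. Doses are not given in the sources used here, so whether the compounds were set against each other at matched doses is not known. The labels do not say whether the arrays of a compound came from separate cultures, and p-values therefore measure only the spread between arrays, which may be technical.

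Polycyclic aromatic hydrocarbons are products of incomplete combustion. Naphthalene is the smallest of them, while 3MC has a larger fused ring system that carries a methyl group. Large planar members of the class bind the aryl hydrocarbon receptor (AHR), which moves to the nucleus, pairs with ARNT and raises transcription of CYP1A1 and other xenobiotic enzymes. Those enzymes can turn the hydrocarbons into reactive epoxides that bind DNA, and DNA damage stabilises the transcription factor p53, which raises genes for cell cycle arrest, repair and apoptosis. Quinones formed from the same compounds can modify KEAP1 and release NRF2, the factor that controls glutathione and antioxidant genes.

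Scanner intensities were measured for 41675 probe spots on each array. Median Cy5 intensities were 125 to 164 and median Cy3 intensities 203 to 301 on these arrays, so that many spots were dim, and 11284 to 14333 spots an array were marked as not found by the scanner software. A gene was tested where both channels stood more than 2 background SDs above the local background on at least 2 of the 3 arrays of each compound, and 15276 of the 17295 named genes passed. Log2 ratios of the tested genes correlated at 0.962 to 0.968 among 3MC arrays and 0.978 to 0.981 among NP arrays, against 0.719 to 0.734 between the sets (Pearson's r across genes, which are not independent replicates). All 10 hepatocyte markers (among them ALB, AFP and APOB) were above background in Cy5 on all 6 arrays. So were 15 of 19 markers of other cell types, and being above background therefore does not set hepatocytes apart.

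The DMSO channels of the 2 sets of arrays were not alike, although both are labelled as the same solvent control. In Cy3 alone, 1743 of 15276 genes (11.4%) differed between 3MC arrays and NP arrays at an adjusted p under 0.05 and at least 1.5-fold, the rule for a call used throughout. Of these, 1629 genes (93.5%) moved the same way in Cy5, which a ratio removes, and 399 were also called in the ratio. A ratio difference can thus come from the exposed cells, from the DMSO cells or from both. Of the 1391 genes called in the ratio, 1142 differed in the same direction in Cy5 alone and 599 (43.1%) did so by at least 1.5-fold, whereas in 363 the DMSO channel moved the opposite way by at least 1.5-fold. Which channel is nearer to the effect of the compounds was not tested. Single-channel differences are therefore given for each list in the plot of list medians and beside called genes whose ratio difference lay largely in Cy3. Cy5 differences set the exposed cells of both sets side by side, and Cy3 differences their DMSO cells. Both also carry any difference between the sets of arrays, which cannot be told apart from one between the cells.

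**Figure D1:**
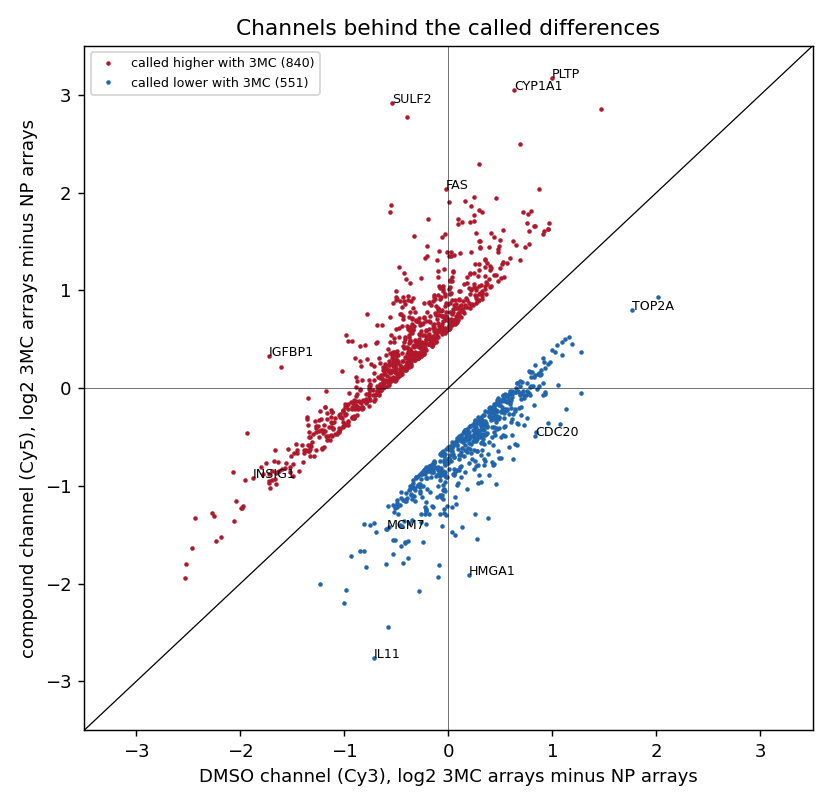
Each point is 1 gene called in the ratio, placed by its log2 difference between 3MC arrays and NP arrays in the DMSO channel (Cy3, horizontal axis) and in the compound channel (Cy5, vertical axis); the diagonal marks a ratio difference of 0. Points near the horizontal line at 0, such as IGFBP1 at 0.32 in Cy5 and -1.73 in Cy3, owe most of the ratio difference to the DMSO channel, while SULF2 at 2.91 and -0.54 owes most to the compound channel.

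Ratios were higher with 3MC than with NP for 840 genes (5.5% of those tested) and lower for 551 (3.61%), together 1391 genes (9.11%) by limma. Centring each array on its median in place of loess moved the median difference of all genes from -0.00 to 0.13 and the split to 1791 higher and 230 lower. Against DMSO, 3MC ratios were called higher for 629 genes (4.12%) and lower for 1268 (8.3%), and NP ratios higher for 1148 genes (7.52%) and lower for 2086 (13.7%). NP, which is not among the classical AHR ligands, thus had more called genes against its DMSO channel than 3MC had. Many differences came from the NP ratios: of the 840 higher genes, 140 were called higher with 3MC and not called with NP, but 431 were called lower with NP and not called with 3MC. Among the 551 lower genes, 286 were called higher with NP and not called with 3MC, while 92 were called lower with 3MC and not called with NP. Against DMSO 15 genes were called higher with 3MC and lower with NP, and 3 the reverse.

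**Figure D2:**
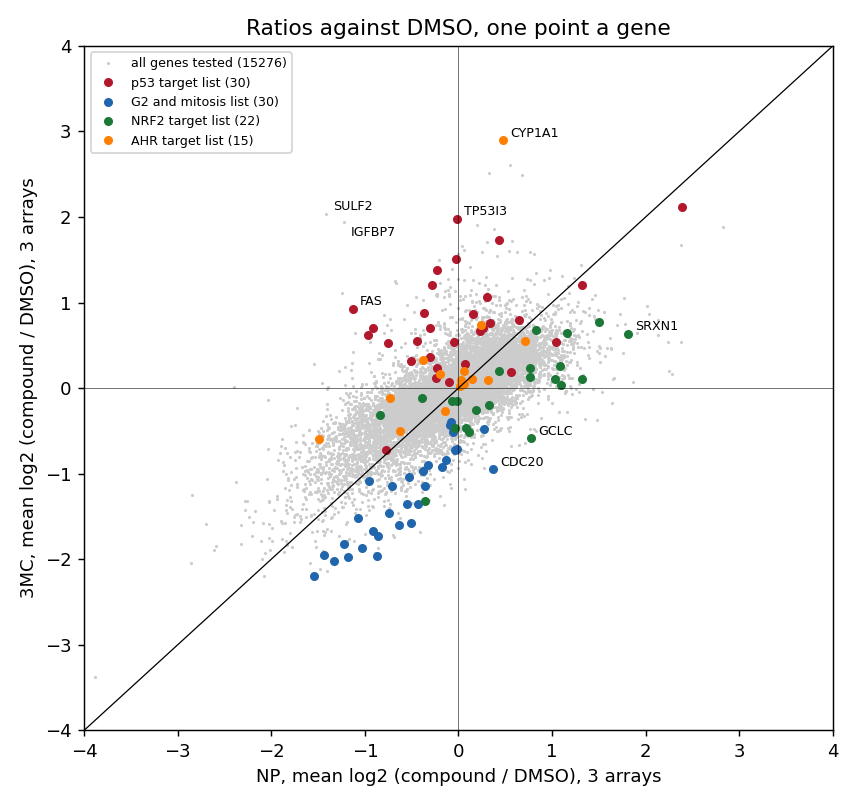
Mean log2 ratio against DMSO of each tested gene over 3 arrays, with NP on the horizontal and 3MC on the vertical axis; the diagonal marks equal ratios and coloured points are 4 gene lists. CYP1A1 stands at 2.90 with 3MC and 0.47 with NP, most p53 targets lie above the diagonal, and G2 and mitosis genes and NRF2 targets lie mostly below it.

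The AHR reads a short core sequence, and the windows around the starts of both CYP1A genes are shown because these neighbours differed in response. The windows run from 250 bases before to 50 after the RefSeq start on GRCh38.p14, with matches to the AHR core GCGTG on either strand in capitals. The CYP1A1 window (chr15:74725479-74725778, minus strand) held 1 match and that of CYP1A2 (chr15:74748595-74748894, plus strand) none.
CYP1A1: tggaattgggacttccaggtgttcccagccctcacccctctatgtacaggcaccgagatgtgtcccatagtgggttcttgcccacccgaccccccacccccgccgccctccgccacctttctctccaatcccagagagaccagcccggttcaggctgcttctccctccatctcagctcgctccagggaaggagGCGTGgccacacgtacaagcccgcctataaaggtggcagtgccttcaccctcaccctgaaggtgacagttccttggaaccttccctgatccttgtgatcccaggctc
CYP1A2: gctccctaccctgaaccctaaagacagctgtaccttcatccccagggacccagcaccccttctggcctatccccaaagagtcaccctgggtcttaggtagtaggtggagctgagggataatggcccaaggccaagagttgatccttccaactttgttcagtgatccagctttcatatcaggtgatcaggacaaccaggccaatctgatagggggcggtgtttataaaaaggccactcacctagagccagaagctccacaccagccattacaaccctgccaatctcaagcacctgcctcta
The core was in 11 of 20 windows of the AHR target list and in 36.5% of all 35116 windows, beside 45.1% of those of genes tested. Over genes called higher with 3MC the share was 43.3% of 1033 windows, and over genes called lower 49.3% of 631. The distal enhancer of CYP1A1 lies outside the window, and a match is a description of letters and not of binding.

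CYP1A1, the cytochrome P450 that oxidises polycyclic aromatic hydrocarbons, had log2 ratios against DMSO of 2.90, 2.91 and 2.88 on the 3MC arrays and of 0.46, 0.53 and 0.44 on the NP arrays (gene at chr15:74719542-74725528). All 3MC values lay above all NP values, as non-overlapping values did in either direction in 63% of all tested genes, and the NP values themselves were above 0 without reaching 1.5-fold. The difference was 2.42 ± 0.04 (SE, n = 3 and 3), or 5.36-fold, with an adjusted p of 6.61e-10 by limma, and Cy5 alone differed by 3.05 with Cy3 at 0.63. AHRR, the repressor that competes with AHR for ARNT, had 3MC ratios of 0.35, 0.33 and 0.29 and NP ratios of -0.42, -0.32 and -0.40. Its difference of 0.70 ± 0.04 (1.63-fold, adjusted p = 6.03e-07, limma) was called, and another probe of the gene differed by 0.44.

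Of the 15 of 17 AHR target genes that could be tested, 4 were called higher with 3MC and 0 lower, against 5.5% of all tested genes called higher; ALDH3A1 and UGT1A1 did not pass the filter. Averaging the probes of a gene left 2 called higher. Besides CYP1A1 and AHRR, the called members were NFE2L2 and SERPINB2. The median difference of the list was 0.12, beside -0.00 over all genes. NFE2L2, which encodes NRF2, was called at 0.89 (0.79 in Cy5) although both ratios were below 0 (-0.59 with 3MC and -1.49 with NP), and a second probe of it differed by -0.30. SERPINB2, a serine protease inhibitor, was called at 0.62, but Cy5 alone differed by -0.35 and without the first 3MC array its difference was 0.57, below the fold threshold. CYP1A2, the liver's main constitutive CYP1 enzyme, differed by -0.12 with a 95% interval of -0.21 to -0.04, while another probe differed by 0.22. CYP1B1 differed by -0.00 (interval -0.10 to 0.10), and its 3MC and NP values overlapped. TIPARP, an ADP-ribosyltransferase that feeds back on AHR, differed by 0.14 (interval 0.05 to 0.23), and NQO1, the quinone reductase, by 0.12 (interval 0.02 to 0.23). Both channels of NQO1 were higher on the 3MC arrays, by 0.87 in Cy5 and 0.75 in Cy3. UGT1A6, a glucuronosyltransferase, had 3MC ratios of 0.77, 0.72 and 0.72 against NP ratios of 0.27, 0.21 and 0.25; it was called higher with 3MC against DMSO, while its difference of 0.49 stayed below 1.5-fold.

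The receptor's own transcript was lower with NP. AHR had log2 ratios of -0.19, -0.20 and -0.05 with 3MC and of -1.02, -1.02 and -1.25 with NP, and was called lower against DMSO in the latter. The difference was 0.95 ± 0.07 (1.93-fold, adjusted p = 1.86e-06, limma), with 1.42 in Cy5 and 0.48 in Cy3. None of the other 10 genes of the receptor complex was called between the compounds, where 9.11% of all genes were. Among them, its partner ARNT differed by -0.15, HSP90AA1 by -0.29, HSP90AB1 by -0.51, PTGES3 (p23) by 0.23, and the coregulators NCOA1, NCOA2, EP300 and NRIP1 by -0.17, 0.00, 0.05 and 0.38. ARNT2 was called lower with both compounds and differed by 0.17.

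Of 17 other cytochrome P450 genes, 4 were called higher with 3MC and 0 lower, against 5.5% and 3.61% of all genes, with a list median of 0.09. CYP4F3, which inactivates leukotriene B4, had a difference of 1.05, from ratios of 0.14 with 3MC and -0.91 with NP. CYP19A1, the aromatase that makes oestrogens, was called higher with 3MC against DMSO (0.83, 0.80 and 0.86) and not called with NP (-0.04, -0.07 and -0.11). The drug-metabolising CYP3A4 and its fetal form CYP3A7 were called at 0.81 and 0.79, but their Cy5 values differed by -0.08 and -0.18, the remainder lying in the DMSO channel. CYP3A4 and CYP3A7 are close paralogs whose probes may share signal. Among 18 conjugation and transport genes 3 were called higher and 0 lower, against the same shares of all genes. They were UGT2B7 (0.77), the steroid sulfotransferase SULT2A1 (0.69) and UGT2B4 (0.59). A second UGT2B4 probe differed by -0.47. The UGT2B4 call was lost without the first 3MC array (0.54), the second NP array (0.57) or the third NP array (0.57).

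p53 target genes were higher with 3MC than with NP. Of 30 members, all tested, 16 were called higher with 3MC and 0 lower, against 5.5% and 3.61% of all genes, and the list median difference was 0.69. Of those 16, 15 were also at least 1.5-fold higher in Cy5 alone, where the list median was 0.81 with 0.01 in Cy3. Against DMSO 18 members were called higher with 3MC and 4 with NP, where 4.12% and 7.52% of all genes were. FAS, the death receptor, had log2 ratios of 0.93, 0.88 and 0.97 with 3MC and of -1.16, -1.21 and -1.02 with NP (chr10:88964050-89017059). It was called higher against DMSO with 3MC and lower with NP, the values lying on opposite sides of 0 on all arrays. The difference was 2.06 ± 0.05 (4.17-fold, adjusted p = 8.68e-09, limma), with 2.03 in Cy5 and -0.03 in Cy3.

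TP53I3, a quinone oxidoreductase induced by p53, had ratios of 1.89, 1.99 and 2.06 with 3MC and of -0.05, 0.04 and -0.04 with NP. With NP it was not called against DMSO. The difference was 2.00 ± 0.05 (3.99-fold, adjusted p = 8.73e-09, limma), with 2.29 in Cy5. DDB2, which recognises ultraviolet and bulky lesions, differed by 1.54, with 0.76 in Cy5 and -0.78 in Cy3, and RRM2B, the p53-inducible ribonucleotide reductase subunit, by 1.58, with 1.67 in Cy5. RRM2B and SPATA18, a mitochondrial quality control gene with a difference of 1.61, were called in opposite directions against DMSO, as FAS was. Other probes of SPATA18 differed by 0.43 and 0.04. Metabolic targets were FDXR, the ferredoxin reductase (1.61, with 1.18 in Cy5), and TIGAR, which lowers glycolytic flux (1.24). CDKN1A, the p21 inhibitor of cyclin-dependent kinases, had ratios of 0.97, 1.01 and 1.21 with 3MC and of 0.35, 0.33 and 0.24 with NP, a called difference of 0.75, and its other probe differed by 1.41. The feedback phosphatase PPM1D differed by 1.28, TP53INP1 by 1.49 and PHLDA3 by 1.29.

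Not all p53 targets separated the compounds. MDM2, the ubiquitin ligase that degrades p53, differed by 0.46 by the brighter probe, below the fold threshold, and by 0.99 by another. BAX, XPC and AEN were each called higher with 3MC against DMSO, and their differences of 0.44, 0.44 and 0.42 were not called. GDF15, a stress cytokine, was called higher with both compounds (2.11 ± 0.14 with 3MC and 2.39 ± 0.17 with NP, SD, n = 3 each) and differed by -0.28. BBC3, the proapoptotic PUMA, was called higher with NP only and differed by -0.50, while its other probes differed by 0.46 and -0.12. CCNG1 was called lower with both and differed by 0.05, with 1.35 in Cy5 and 1.30 in Cy3.

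**Figure D3:**
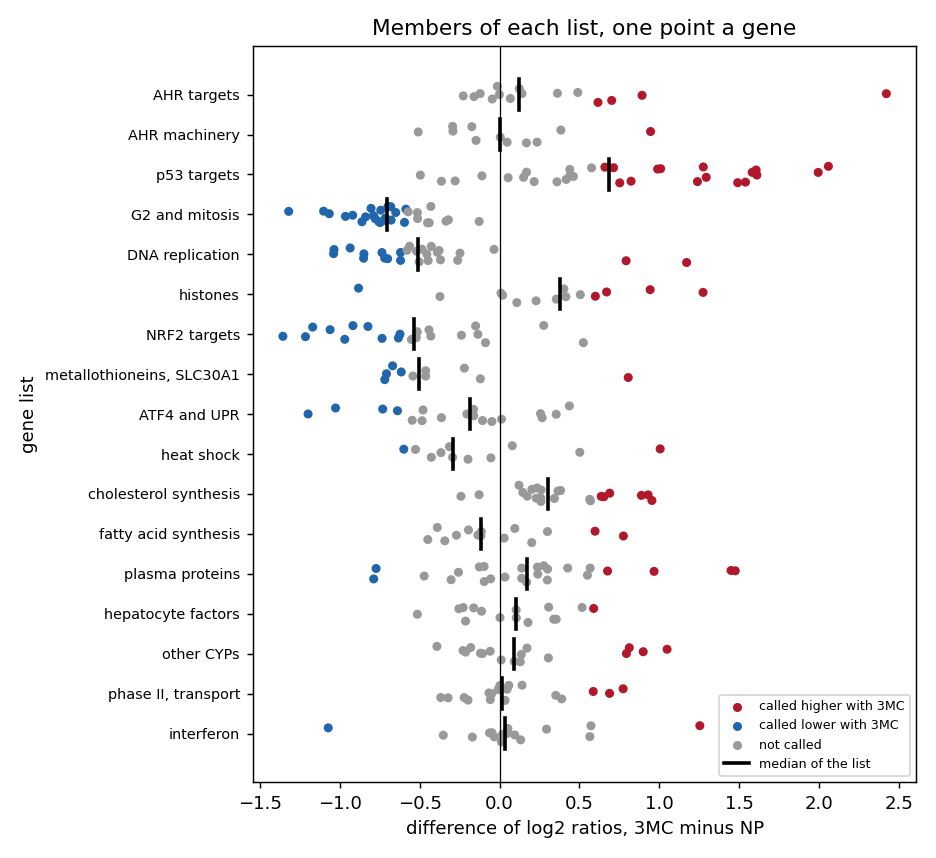
Each point is 1 gene of a list, placed by the difference of its log2 ratios (3MC minus NP), coloured by its call, with a black bar at the list median; vertical scatter within a list has no meaning. The p53 median is 0.69 with 16 of 30 called higher, and that of the G2 and mitosis list -0.71 with 21 of 30 called lower.

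Genes of G2 and mitosis were lower with 3MC than with NP in all 30 members, and 21 of them were called lower and 0 higher, against 3.61% of all genes called lower. Their median difference was -0.71, from medians of -1.25 with 3MC and -0.54 with NP. Against DMSO 26 members were called lower with 3MC and 14 with NP, where 8.3% and 13.7% of all genes were. CDC20, the activator of the anaphase-promoting complex, had ratios of -0.85, -1.04 and -0.96 with 3MC and of 0.38, 0.37 and 0.36 with NP, a difference of -1.32 ± 0.05 (2.50-fold, adjusted p = 5.00e-08, limma), with -0.49 in Cy5 and 0.83 in Cy3. The NP values were above 0 while those of 3MC were called lower. BIRC5 (survivin) differed by -1.07 by 1 probe and by 0.09 by another, the kinase PBK by -1.10 (-0.75 in Cy5) and the spindle checkpoint kinase BUB1 by -0.92 (-0.50 in Cy5). CDK1, the mitotic kinase, was called lower with both, with mean ratios of -2.02 with 3MC and -1.33 with NP and Cy5 0.11 higher with 3MC. Cyclin B1 (CCNB1), at -1.14 and -0.71, differed by -0.43 without a call, with -1.11 in Cy5 and -0.68 in Cy3.

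More of the difference of this list was seen in Cy3 than in Cy5. Both channels also carry any difference between the sets of arrays, so its source cannot be assigned. In Cy5 alone the list median was -0.32, with 4 members called lower and 1 higher, against 6.8% and 7.17% of all genes in Cy5, while in Cy3 it was 0.41: the DMSO signal of these transcripts was higher on the 3MC arrays than on the NP arrays. TOP2A, the topoisomerase of dividing cells, was called at -0.97 in the ratio, but Cy5 alone was 0.80 higher with 3MC and Cy3 1.76 higher. BIRC5 differed in Cy5 alone by -1.29. Median centring left 12 members called lower. In bulk RNA, fewer dividing cells and less RNA per cell cannot be told apart.

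A CHR element, TTTGAA, is read by the DREAM repressor in promoters of late cell cycle genes, and an E2F site, searched as TTTGGCGC or TTTCCCGC, in those of replication genes. Windows of CDC20 (chr1:43358731-43359030, plus strand) and of the helicase gene MCM6 (chr2:135876394-135876693, minus strand) are shown as examples, with matches on either strand in capitals. Each held 2 matches. Of the genes with a window, 18 of 25 in the G2 and mitosis list and 13 of 25 in the DNA replication list held any.
CDC20: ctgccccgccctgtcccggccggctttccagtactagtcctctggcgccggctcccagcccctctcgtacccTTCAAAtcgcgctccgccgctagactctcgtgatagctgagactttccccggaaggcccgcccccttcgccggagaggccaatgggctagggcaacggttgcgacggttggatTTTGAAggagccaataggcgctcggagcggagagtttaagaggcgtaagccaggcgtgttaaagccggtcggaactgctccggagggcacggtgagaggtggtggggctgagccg
MCM6: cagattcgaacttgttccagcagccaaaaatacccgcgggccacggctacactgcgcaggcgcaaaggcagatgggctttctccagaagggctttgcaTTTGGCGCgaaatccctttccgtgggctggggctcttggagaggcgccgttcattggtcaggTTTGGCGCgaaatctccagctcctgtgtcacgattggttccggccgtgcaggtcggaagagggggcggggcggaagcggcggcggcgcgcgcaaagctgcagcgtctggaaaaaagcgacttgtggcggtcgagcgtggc
The CHR letters were in 20 of 30 windows of the G2 and mitosis list, in 1 of 32 of the DNA replication list and in 15.2% of all windows. The E2F letters were in 2 of 30, 13 of 32 and 2.27%. Over all genes called lower with 3MC the shares were 14.7% and 4.91% of 631 windows, beside 11.4% and 3.02% for the genes tested.

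DNA replication genes called lower with 3MC numbered 10 of 26 tested in the ratio and 18 in Cy5 alone. In the ratio 2 were called higher, against 3.61% of all genes lower and 5.5% higher, with a median difference of -0.51, and all but those 2 differed below 0. In Cy5 alone, where 6.8% of all genes were called lower, the median was -0.80, with -0.25 in Cy3, so that here the ratio was smaller than the Cy5 difference. MCM6, a subunit of the replicative helicase, had ratios of -1.07, -1.11 and -1.19 with 3MC and of -0.07, -0.14 and -0.04 with NP (difference -1.04 ± 0.05, 2.05-fold, adjusted p = 9.94e-08, limma). MCM5 had -0.55, -0.49 and -0.48 with 3MC against 0.57, 0.56 and 0.48 with NP, a difference of the same size with values on opposite sides of 0. The licensing factor CDT1 differed by -0.94, the ribonucleotide reductase subunit RRM2 by -0.85, MCM7 by -0.85 and the flap nuclease FEN1 by -0.74. The 2 members called higher were PCNA, the polymerase clamp and also a p53 target, with 0.42, 0.27 and 0.33 with 3MC and -0.90, -0.77 and -0.84 with NP, and thymidylate synthase (TYMS) at 0.79. Median centring left 5 members called lower.

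Histone genes were measured in 14 members, of which 4 were called higher and 1 lower with 3MC, against 5.5% and 3.61% of all genes (median 0.38). The linker histones H1-2 and H1-4 differed by 1.28 and 0.67, with 0.43 and 0.34 in Cy5, and H2AC6 by 0.94 in the ratio and 0.96 in Cy5, while a second H2AC6 probe differed by -0.06. The list median was -0.11 in Cy5 and -0.33 in Cy3. Histone paralogs are similar in sequence, and their probes may share signal.

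**Figure D4:**
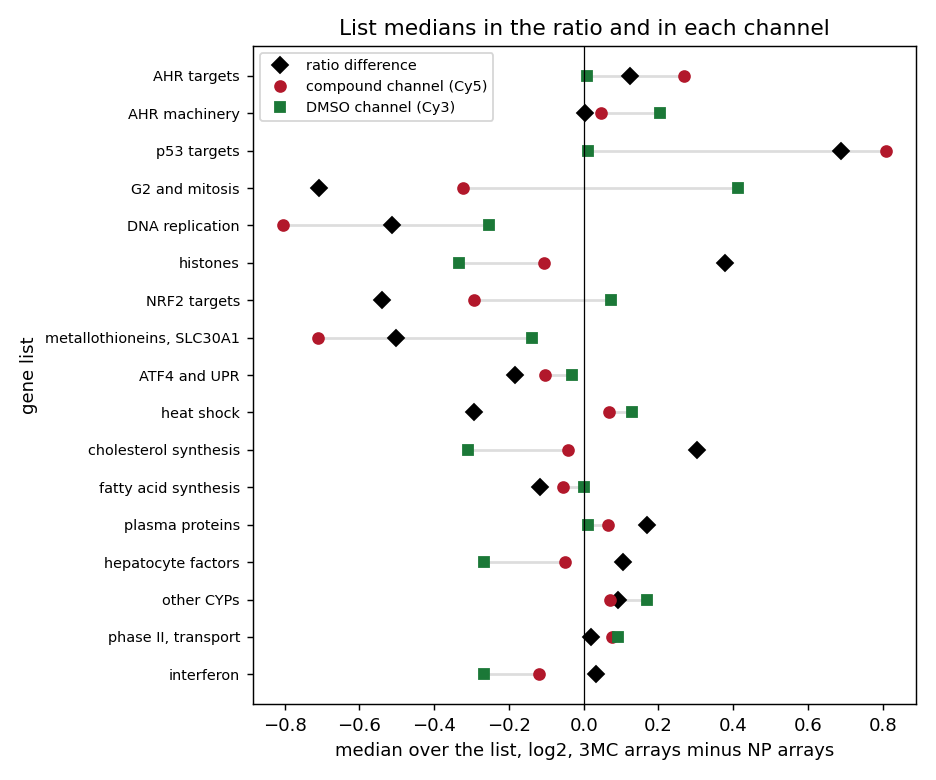
Medians over each list of the ratio difference (black), the compound channel difference (Cy5, red) and the DMSO channel difference (Cy3, green), all in log2, 3MC arrays minus NP arrays. The p53 list has 0.81 in Cy5 and 0.01 in Cy3, the G2 and mitosis list -0.32 and 0.41, and the cholesterol list -0.04 and -0.31.

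NRF2 target genes called between the compounds were all lower with 3MC. Of 22 tested members 10 were called lower and 0 higher, against 3.61% and 5.5% of all genes, and the median difference was -0.54. Against DMSO 11 members were called higher with NP and 4 with 3MC, where 7.52% and 4.12% of all genes were. GCLC, the catalytic subunit that starts glutathione synthesis, had ratios of -0.57, -0.62 and -0.56 with 3MC and of 0.84, 0.67 and 0.79 with NP, and was called lower with the first and higher with the second. Its difference was -1.36 ± 0.05 (2.56-fold, adjusted p = 4.03e-08, limma), with -1.42 in Cy5, -0.06 in Cy3 and -1.35 by another probe. SRXN1 (sulfiredoxin) had 0.73, 0.58 and 0.60 with 3MC and 1.86, 1.82 and 1.74 with NP, called higher with both and different by -1.17. The ferritin chains FTL and FTH1, which store iron, differed by -1.22 and -1.06, with -0.79 and -0.31 in Cy5. The thioredoxin reductase TXNRD1 differed by -0.74, but its Cy5 signal was 0.45 higher with 3MC. AKR1C1, a ketosteroid reductase, differed by -0.92 (-0.81 in Cy5). The cystine carrier SLC7A11 and the efflux pump ABCC3 differed by -0.97 and -0.82, with -0.27 and -0.05 in Cy5, the rest lying in the DMSO channel.

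HMOX1, haem oxygenase, went the other way: it was called lower with NP (-0.87, -0.87 and -0.80), stood at -0.32, -0.30 and -0.33 with 3MC, and differed by 0.53 without a call. GCLM, the modifier subunit of the same enzyme as GCLC, differed by -0.53, also without a call, and by 0.06 in Cy5. In Cy5 alone 6 of the 22 were called lower and 0 higher, beside 6.8% and 7.17% of all genes. Median centring gave 6 lower and 1 higher.

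Metallothioneins, small cysteine-rich proteins that bind zinc and copper, were mostly called higher against DMSO: 6 of 9 with 3MC and 6 with NP, where 4.12% and 7.52% of all genes were, while MT1M was called lower with 3MC. The list also holds the zinc exporter SLC30A1, called higher with 3MC, and its genes are known targets of the metal-responsive factor MTF1. The window of MT1H (chr16:56669564-56669863, plus strand) is shown because it is dense in the metal response element core, searched as TGCACNC or TGCGCNC on both strands; it held 8 matches.
MT1H: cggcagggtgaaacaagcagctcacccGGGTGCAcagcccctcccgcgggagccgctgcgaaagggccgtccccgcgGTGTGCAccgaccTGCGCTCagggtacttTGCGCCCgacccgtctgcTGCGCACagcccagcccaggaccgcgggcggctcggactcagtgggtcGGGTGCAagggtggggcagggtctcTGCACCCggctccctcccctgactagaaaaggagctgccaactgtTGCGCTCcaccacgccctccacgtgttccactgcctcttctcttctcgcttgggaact
All 5 windows listed for the 10 genes held a match, beside 29.6% of all windows and 35.3% of those of genes tested.

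MT1A had ratios of 0.99, 0.98 and 1.18 with 3MC and of 1.90, 1.70 and 1.71 with NP, a difference of -0.72 ± 0.07 (1.65-fold, adjusted p = 1.28e-05, limma). MT1H had 0.88, 0.84 and 0.94 against 1.69, 1.45 and 1.53, and differed by -0.67. MT2A differed by -0.71, but its Cy5 signal was 0.18 higher with 3MC. MT1M at -0.62 was the remaining member called lower, which makes 4 of 10 against 3.61% of all genes, with a list median of -0.50. Scaling between arrays left 1 called lower, median centring 2. SLC30A1 went the other way, with 1.03, 0.98 and 1.05 with 3MC, 0.20, 0.29 and 0.15 with NP and a called difference of 0.81. Metallothionein genes are near-identical, so their probes may share signal.

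Of 18 ATF4 and unfolded protein response genes, which belong to the integrated stress response, 4 were called lower with 3MC and 0 higher, against 3.61% and 5.5% of all genes (median -0.18). Median centring left 2 called lower. DDIT4, an inhibitor of mTORC1, had -0.11, -0.09 and 0.02 with 3MC and 1.19, 1.16 and 1.07 with NP (difference -1.20), and the pseudokinase TRIB3 differed by -1.03; Cy5 alone gave -1.24 for each. DNAJB9 and ASNS differed by -0.73 and -0.64, with -0.29 and -0.08 in Cy5. ASNS fell below the fold threshold (-0.56) without the first NP array, and another probe of it differed by 0.06. ATF4 itself differed by -0.05 and its target CHAC1 by 0.01. Of 11 heat shock genes, 1 was called in each direction, against 5.5% higher and 3.61% lower of all genes: HSPB1 was higher with 3MC (1.01, of which 0.12 in Cy5) and HSPA8 lower (-0.60, with 0.18 in Cy5 and -0.46 without the first 3MC array).

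Of 22 cholesterol synthesis genes 6 were called higher with 3MC and 0 lower, against 5.5% and 3.61% of all genes, with a median difference of 0.30. Against DMSO 7 were called lower with NP and 4 with 3MC, where 13.7% and 8.3% of all genes were. SQLE, squalene epoxidase, had -0.67, -0.56 and -0.68 with 3MC and -1.53, -1.53 and -1.64 with NP, and differed by 0.93 ± 0.05 (1.91-fold, adjusted p = 2.82e-07, limma), with 0.59 in Cy5. Other called members included the sterol sensor INSIG1 (0.95), LSS (0.89), CYP51A1 (0.65, with -0.03 in Cy5) and SC5D (0.64). Other probes of LSS differed by 0.14 to 0.37. In Cy5 alone 5 members were called lower and 3 higher, against 6.8% and 7.17% of all genes, and the list median was -0.04: INSIG1 and LSS were lower with 3MC there (-0.92 and -0.39), with -1.88 and -1.28 in the DMSO channel. Median centring gave 10 members higher. In fatty acid synthesis 2 of 14 were called higher, against 5.5% of all genes, the desaturase FADS2 (0.78, with -0.82 in Cy5) and the acyltransferase GPAM (0.60, and 0.58 without the first 3MC array), while FASN differed by -0.19. Another probe of FADS2 and of GPAM differed by 0.05 each, and averaging the probes of a gene left 0 of the 14 called.

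Of 25 plasma protein genes 4 were called higher and 2 lower with 3MC, against 5.5% and 3.61% of all genes (median 0.17), and median centring gave 7 higher. APOM, the carrier of sphingosine-1-phosphate on lipoproteins, had 0.45, 0.55 and 0.60 with 3MC and -0.95, -0.95 and -0.93 with NP, a difference of 1.48 with 1.80 in Cy5. The thyroxine carrier TTR differed by 1.45 (0.49 in Cy5), the fetal protein AFP by 0.97 (1.45 in Cy5) and the fibrinogen chain FGA by 0.68. The haemoglobin scavenger HP and the inhibitor of calcification AHSG differed by -0.79 and -0.77, with -0.48 and -0.22 in Cy5. Albumin (ALB) differed by 0.28 with SDs of 0.16 and 0.17 and was not called, while its other probes differed by 0.84 and 0.56. Among 15 hepatocyte transcription factors 1 was called higher and 0 lower, against 5.5% and 3.61% of all genes. It was FOXA1 at 0.59 (0.32 in Cy5), not called without the second 3MC array (0.55) or the first NP array (0.56). HNF4A differed by 0.31.

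Markers of other cell types gave 1 call in 16 tested genes, against 9.11% of all genes. ACTA2, the smooth muscle actin, differed by 1.33, with 1.14, 1.10 and 1.02 with 3MC and -0.20, -0.28 and -0.26 with NP; its gene overlaps FAS on chromosome 10. The immune gene PTPRC and the endothelial genes PECAM1 and CDH5 did not pass the filter. Summed Cy5 levels of the 19 markers were 10740 to 12111 on 3MC arrays and 7278 to 7847 on NP arrays. Over the 16 tested markers the median Cy5 difference was -0.01, with 8 above 0 and 8 below. In Cy5, 1 of them (ACTA2, 1.36) was at least 1.5-fold higher with 3MC and 1 lower. Summed Cy5 levels of the 10 hepatocyte markers were 137109 to 145938 on 3MC arrays and 128898 to 131972 on NP arrays. The part of these markers in the other results was not tested. Of 16 interferon genes IFI27 was called higher (1.25) and IFITM1 lower (-1.07), the other 14 lying between -0.35 and 0.57, counts near the 5.5% and 3.61% of all genes.

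The 12 highest and 12 lowest differences were taken only from called genes above background in both channels on all 6 arrays. Genes with saturated spots or with overlapping values of the compounds were left out before ranking. SULF2, a sulfatase that trims heparan sulfate at the cell surface, had ratios of 1.97, 2.07 and 2.07 with 3MC and of -1.44, -1.35 and -1.46 with NP (chr20:47657406-47786627). It was called in opposite directions against DMSO, and the difference was 3.45 ± 0.05 (11.0-fold, adjusted p = 1.87e-10, limma). IGFBP7, a secreted binder of insulin-like growth factors, had 1.96, 1.88 and 2.00 against -1.27, -1.21 and -1.19, a difference of 3.17. Cy5 alone gave 2.91 and 2.77 for these genes. PLTP, the phospholipid transfer protein, differed by 2.18, the Golgi protein GASK1B by 2.35, the thyroxine-binding globulin SERPINA7 by 1.93 and the protein C receptor PROCR by 1.89.

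DEPP1, a FOXO target, and IKBIP were in this group through their NP ratios: DEPP1 had 0.07, 0.03 and -0.04 with 3MC and -2.45, -2.37 and -2.38 with NP, and IKBIP differed by 1.90 with mean ratios of -0.14 and -2.04. A second probe gave 1.61 for DEPP1 and 0.57 for IKBIP. IGFBP1, an insulin-regulated liver hormone binder, had 2.36, 2.59 and 2.85 with 3MC and 0.70, 0.44 and 0.52 with NP, a difference of 2.05, of which Cy5 alone showed 0.32 and the DMSO channel -1.73.

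At the other end, all 12 genes were called higher with NP against DMSO, and only TGFB1 also with 3MC. HMGA1, a chromatin protein of growing cells, had 0.15, 0.21 and 0.15 with 3MC and 2.25, 2.29 and 2.31 with NP (difference -2.12 ± 0.04, 4.33-fold, adjusted p = 1.22e-09, limma), while another probe of the gene differed by -0.09. IL11, a cytokine of the IL-6 family, had 0.14, 0.28 and 0.18 against 2.35, 2.20 and 2.20, a difference of -2.05 with -2.77 in Cy5. Growth factor and signalling genes in the group were TGFB1 (-1.51), PDGFA (-1.55), the ERK feedback inhibitor SPRY4 (-1.55) and the calcium channel ITPR3 (-1.71). Metabolic genes were the hexokinase-like HKDC1 (-1.82, and -1.15 by another probe), ANGPTL8, which governs lipoprotein lipase (-1.72), and the acyltransferase GPAT3 (-1.45). PHLDA2, an imprinted growth restrictor, differed by -1.84, the collagen mRNA binder LARP6 by -1.79 and the stromelysin MMP10 by -1.57, the last with a spread of 1.27 to 1.95 among its NP arrays.

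**Figure D5:**
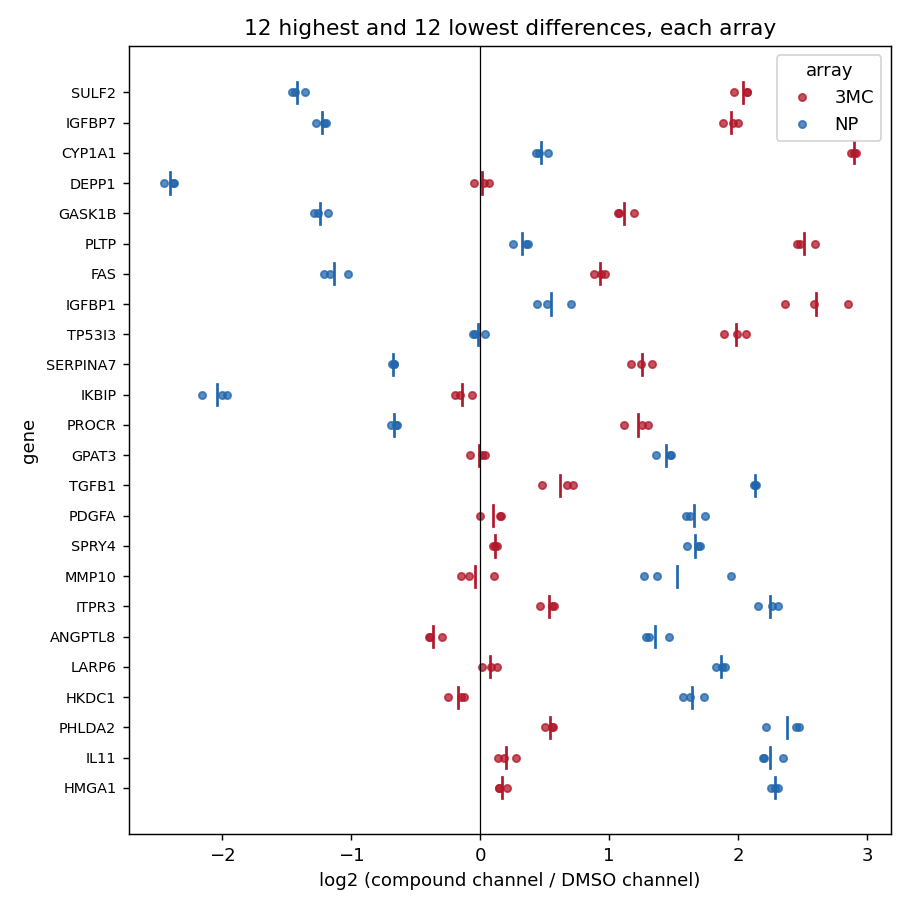
Log2 ratios against DMSO of the genes with the 12 highest and 12 lowest differences; each point is 1 array, bars are means of 3, red for 3MC and blue for NP. SULF2, IGFBP7, GASK1B, FAS, SERPINA7 and PROCR lie on opposite sides of 0, DEPP1 and IKBIP are low only with NP, and the 12 lower genes are high with NP.

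Genes below background with 1 compound have only a bound. In 83 genes outside the tested set, Cy5 was well above background on all 3 arrays of 1 compound and on none of the other. In 11 of them the bright side exceeded the dim side by at least 1.5-fold. For this bound the dim side was set to no less than the lowest signal well above background. These genes were picked by the Cy5 signal that the bound uses, so the bounds are a description and were not tested. HSPA6, a strictly inducible HSP70, was at least 3.76-fold higher with NP, and LINC02871, RBP3 and CD200R1 were at least 2.74-fold, 2.24-fold and 2.21-fold higher. PCDH15 was at least 2.56-fold higher by the same bound. Its ratio difference had an adjusted p of 0.0726 in the limma fit that kept dim spots, which misses the threshold. DSC3, a desmosomal cadherin and the highest on the 3MC side, was at least 1.95-fold higher with 3MC.

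Further probes of a gene did not always repeat the call. The brightest probe stood for each gene, and 546 called genes had 742 further probes, of which 584 (78.7%) differed in the same direction and 168 (22.6%) did so by at least 1.5-fold.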

How the data were processed

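Scanner output of 2-colour Agilent arrays was used. Per the file headers, the deposited files give spot and background intensity per dye before any normalisation, plus the percent of saturated pixels. The authors also deposited log2 ratios whose normalisation the labels do not state; those of 3MC arrays 1 and 2 and NP arrays 2 and 3 could be tied to spots and served as an alternative.

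Background was corrected with normexp (offset 50) and ratios by loess in limma 3.58.1 under R 4.3.3, after reading with Python 3.11.15 and pandas 2.3.3 (numpy 2.4.6, matplotlib 3.10.9). Single channels were also scaled by Aquantile. Probes were named through RefSeq (GRCh38.p14): 26492 of 41000, of which the brightest stood for a gene. Differences were tested with lmFit and eBayes, 2-sided, with Benjamini-Hochberg adjustment over 15276 genes. On simulated data for 3MC minus NP over 15276 genes, 36% of 1.5-fold, 100% of 2-fold and 98% of 4-fold changes were called. Of the unchanged genes 0 were called. The simulated noise was independent for each gene and array and held no difference between the sets of arrays. The simulation therefore cannot give the rate of false calls in these data, where the DMSO channels alone gave 1743 calls. The number of arrays limits the precision.

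Members and lists were chosen with earlier results of these data known. Named genes were the 12 highest and 12 lowest called differences (both channels above background on all 6 arrays, unsaturated, not overlapping), every gene of the AHR lists, up to 4 called members of each other list, the 6 largest bounds, and list members as examples. Results for some members are not reported here.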

Additional observations from a re-analysis of the deposited data

Results flagged for a closer look

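Against their own DMSO channels, 18 genes were called in opposite directions with 3MC and with NP. The difference between the compounds was also called for each by limma. Its size followed from picking genes at least 1.5-fold from DMSO on opposite sides, so this adds no support. Of the 18, 15 were called higher with 3MC and lower with NP, and 3 (GCLC, HOXB3 and ODC1) the reverse. SULF2 had mean log2 ratios of 2.04 with 3MC and -1.42 with NP, and IGFBP7 of 1.95 and -1.23. The rest of the 15 were GASK1B, FAS, SERPINA7, PROCR, NTN4, DAO, ITIH5, SPATA18, RRM2B, ANKRA2, CCDC90B, ISCU and TP53TG1, with differences from 2.35 for GASK1B down to 1.40 for TP53TG1. Cy5 is part of the ratios by which these genes were picked, so its values are a description. In Cy5 alone all 18 differed in the same direction as in the ratio, 16 of them by at least 1.5-fold. The exceptions in size were HOXB3 at -0.21 and ODC1 at -0.36, whose DMSO channels differed by 1.14 and 0.95.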

How the results depend on the processing

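Under median centring 1791 genes were higher and 230 lower with 3MC. At 2-fold the counts were 146 higher and 99 lower, 485 called with 3MC and 1047 with NP against DMSO and 387 in the DMSO channel; with adjusted p alone they were 4504, 4119, 11098, 12250 and 4353. In Cy5 alone 1039 genes were lower. Leaving out 1 array gave 836 to 858 higher, 545 to 573 lower, 1896 to 1932 called with 3MC, 3201 to 3293 with NP and 1651 to 1826 in the DMSO channel. The cause of these moves was not tested, apart from thresholds, which change the counts by construction. Cy5 alone reversed SERPINB2 (-0.35), ARNT2 (-1.13), TOP2A (0.80), INSIG1 (-0.92), LSS (-0.39), FADS2 (-0.82), MT2A (0.18), HSPA8 (0.18), CYP3A4 (-0.077), CYP3A7 (-0.18) and IGFBP4 (-0.25). Requiring both channels above background on all 6 arrays reversed UGT2B4 (-0.47), which another probe then stood for. With the array number as a replicate block, 1393 genes were called. Same-numbered arrays of the compounds deviated with correlations of -0.03, 0.01 and -0.04. These values show no shared deviation, but whether the numbers pair the arrays is not known. The authors' values of 4 arrays gave 1669 called genes, 1181 of them shared. Filters at the 95th percentile of negative controls and at 10 background SDs were chosen after seeing the data and gave 1451 and 1218. Median Cy5 intensities of 125 to 164, against local backgrounds of 39 to 40, limit the precision of dim genes.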

Other observations

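Lists of ERK feedback genes, insulin-like growth factor binding proteins and high-mobility-group proteins were written after SPRY4, IGFBP7 and HMGA1 had been seen, and their values are a description. Of 16 ERK feedback genes 5 were called lower and 1, PHLDA1 (0.85), higher with 3MC, against 3.61% and 5.5% of all genes, with a median difference of -0.28. The phosphatase DUSP5 had log2 ratios of 0.57, 0.67 and 0.65 with 3MC and of 1.92, 1.92 and 1.63 with NP. IER3, an early response gene, had 0.84, 0.89 and 0.86 against 2.09, 1.96 and 2.07, and the transcription factor ETV4 differed by -1.10, with -0.38 in Cy5.

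In the IGF group IGF2 was lower with 3MC (-0.33, -0.36 and -0.36 against 0.88, 0.86 and 0.88 with NP, and -0.72 in Cy5), although its other probes differed by -0.17 to 0.05, while IGFBP4 was higher by 0.91 in the ratio and differed by -0.25 in Cy5. Of 9 high-mobility-group genes 2 were called lower, HMGA1 and HMGB2, against 3.61% of all genes. HMGB2 differed by -0.64, from -2.12 with 3MC and -1.48 with NP, but by -0.03 in Cy5 and 0.61 in Cy3.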
